A study of Mus musculus with 16 samples.

Results

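Somatostatin neurons of the hypothalamus and preoptic area (POA) were picked from single-cell transcriptomes of 16 female mice, made by Drop-seq, in which each cell and each captured RNA molecule carries its own barcode and a molecule is counted once as a unique molecular identifier (UMI). A barcode was taken as a Sst neuron when it had more than 200 and fewer than 4000 genes, under 15% of its UMIs on genes whose symbol begins with mt-, at least 3 of 8 neuronal genes (Snap25, Syt1, Stmn2, Snhg11, Meg3, Celf4, Map1b and Ndrg4), at least 8 Sst UMIs and under 5 UMIs each of Gal, Agrp and Trh. This gave 141 Sst neurons, out of 9679 neuronal barcodes and 55675 barcodes that passed the limits on genes and mt- UMIs. Because Sst itself chose the cells, the Sst level inside them is given as a description and is not tested.

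The mice were wild type (WT) or lacked estrogen receptor alpha in the cells where a Nkx2-1-Cre transgene had acted on floxed Esr1 alleles (Esr1cKO), and received corn oil or tamoxifen at 0.1 mg/kg in 28 daily subcutaneous injections begun at 8 to 10 weeks of age. The 4 groups were 3 WT oil, 5 WT tamoxifen, 4 Esr1cKO oil and 4 Esr1cKO tamoxifen mice, 1 library per mouse, taken 2 h after the last injection. WT mice were littermates without Cre on a mixed CD-1 and 129P2 background. Cre driven by Nkx2-1 reaches only part of the hypothalamus and POA, so an Esr1cKO library also holds neurons with intact Esr1.

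Somatostatin is a peptide of neurons in several parts of the brain. Periventricular hypothalamic neurons release it into the portal blood, where it restrains growth hormone secretion by the pituitary. Other hypothalamic and forebrain neurons use it as a co-transmitter, most of them with GABA. Its precursor, encoded by Sst, is cut by prohormone convertases in dense-core vesicles, and the peptide acts on receptors encoded by Sstr1 to Sstr5, which couple to inhibitory G proteins. Transcription of Sst is a textbook case of control by cyclic AMP through a cyclic AMP response element (CRE) just upstream of the coding exon.

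The CRE is shown because it is the best known control sequence of the gene that defines these cells. In the RefSeq promoter sequences of GRCm38.p6 (the mm10 build named in the submitters' processing notes), Sst lies on the minus strand and the 8 letters TGACGTCA, capitals below, stand 48 to 41 bases before the start that the promoter sequences use, inside the stretch chr16:23890874-23890903. The stretch also lies inside longer models of the gene. The RefSeq gene spans chr16:23889573-23891342, and a GENCODE vM21 transcript that starts at 23890958 places the stretch in its 5′ UTR.
Sst CRE: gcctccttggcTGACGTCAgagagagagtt
Searched on both strands, TGACGTCA occurs in 1.79% of the 32851 RefSeq promoter windows of 300 bases (250 before and 50 after the start). The Sst window holds no GGTCA, 1 arm of an estrogen response element, which 40.5% of windows hold. A match is a description of these letters and not a measured binding site.

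Depth sets how much 1 cell can show. The libraries held 2634253 to 8038158 UMIs, and the kept barcodes of a library had a median of 563 to 819 UMIs. A Sst neuron had 367 UMIs at the lowest, a median of 3180 and 9454 at the highest, against a median of 2376 in the 6786 other neurons with at least 1000 UMIs that serve as comparator. WT oil replicate 3 and Esr1cKO tamoxifen replicate 3 stood apart from the rest. Their deposited barcodes had at least 100 genes where those of the other 14 libraries began at 20, and their scores on the first principal component of all library sums (65.2% of the variance) were 65.0 and 62.9 against -16.65 to -4.80. The shares of Sst neurons, Sst in all neurons and the comparisons of conditions are also given without them. A count of 0 in 1 Sst neuron says little about a gene, and counts are summed per mouse wherever mice are compared.

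The limit of 8 Sst UMIs set the chosen cells apart by rule, so their Sst counts are a description. Sst UMIs per Sst neuron were 8 at the lowest, 24 at the median and 299 at the highest. The 141 cells held 82.3% of the 7650 Sst UMIs in all kept barcodes. Among neurons within the other limits, 174 had exactly 1 Sst UMI, 17 had 6 or 7 and so lay just outside the rule, and 17 had 8 or 9 and lay just inside it. Of the 29091 barcodes with none of the 8 neuronal genes, 0.622% had a Sst UMI and 0 had 8, at a median depth of 547 UMIs, while 3.63% of the comparator neurons had a Sst UMI.

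**Figure D1:**
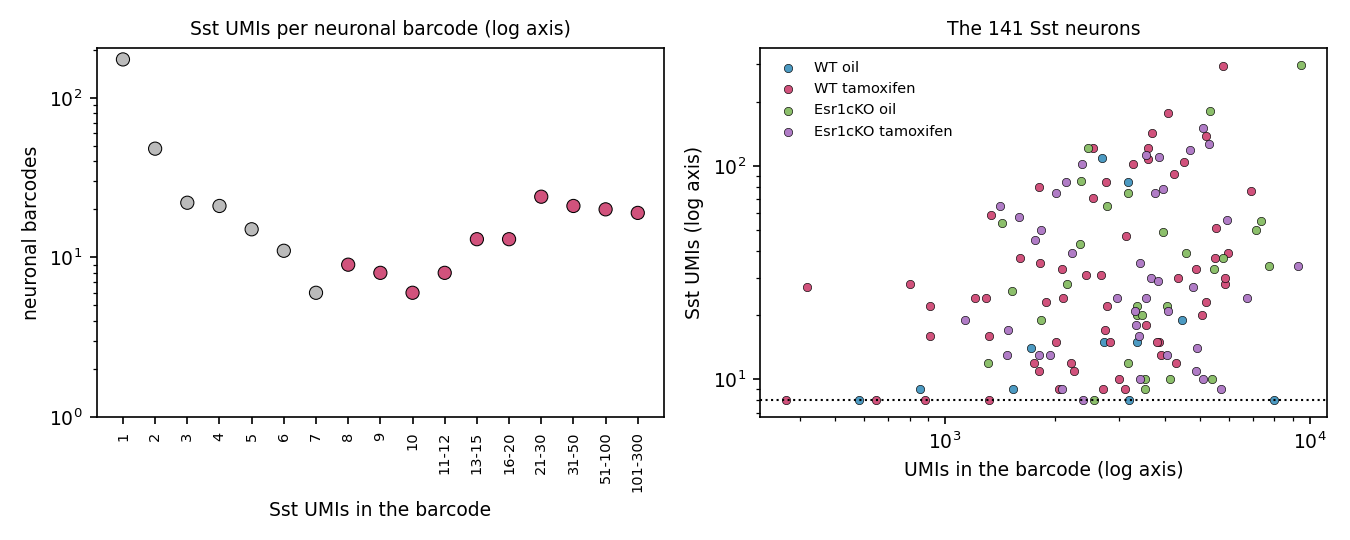
Left, neuronal barcodes (log axis) by their number of Sst UMIs, grey below and red at or above the limit of 8, among barcodes with under 5 UMIs each of Gal, Agrp and Trh. Right, Sst UMIs against all UMIs of each of the 141 Sst neurons (both log axes) by group, the limit a dotted line and Sst running from 8 to 299 UMIs.

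The rule itself kept Gal, Agrp and Trh low in the chosen cells, so their counts of these peptides are a description. Its limits on them had removed 8 neuronal barcodes with at least 8 Sst UMIs. Of the Sst neurons, 127 had no Gal UMI, 1 was called a doublet by Scrublet, and no barcode string was shared between Sst neurons of 2 libraries, although 520 of 54478 barcode strings among all kept cells occurred in more than 1 library. Markers of other cell types were lower than in other neurons. Over all 16 libraries, the 10 oligodendrocyte markers summed to 803 UMIs per 1e6 UMIs (CPM) in Sst neurons and 2662 in other neurons, with Mbp the most abundant. The 12 astrocyte markers summed to 411 against 1078 CPM, the 8 endothelial markers to 72.0 against 627 with Cldn5 at 0, and the 9 microglia markers to 40.3 against 172 with Ctss, C1qa, C1qc and P2ry12 at 0. The 7 mural markers summed to 25.4 against 516 CPM.

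The deleted gene was checked first. Esr1 in all neurons was 33.7 to 91.3 CPM in the WT oil libraries, 55.8 to 76.1 in WT tamoxifen, 41.0 to 51.3 in Esr1cKO oil and 14.9 to 66.6 in Esr1cKO tamoxifen, so the genotypes overlapped. The lowest WT oil and Esr1cKO tamoxifen values came from the 2 libraries that stood apart. Without them these 2 ranges began at 50.4 and 46.3 CPM, and the genotypes still overlapped. Drop-seq reads the 3′ end, which lies outside the deleted exon, and so these values do not check the genotype. Within Sst neurons Esr1 gave 21 UMIs in 15 of 141 cells, and after thinning each cell to 1000 UMIs 3.03% of Sst neurons and 4.45% of other neurons had an Esr1 UMI, beside 3.26% of barcodes with no neuronal gene. The share in Sst neurons was not above that in the barcodes with no neuronal gene and is not read as expression here.

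The share of neurons that were Sst neurons averaged higher in tamoxifen-treated than in oil-treated WT mice, and the difference did not pass adjustment over the 4 comparisons made. Sst neurons made up 0.570%, 0.518% and 1.18% of neurons in the 3 WT oil mice, from 2, 3 and 6 cells. They made up 1.66%, 2.40%, 1.59%, 1.49% and 1.64% in the 5 WT tamoxifen mice, from 15, 14, 10, 12 and 9 cells. The 2 groups did not overlap, with means of 0.757% ± 0.370 (SD, n = 3) and 1.76% ± 0.365 (SD, n = 5). The two-sided exact permutation test gave p = 0.0179, the smallest the 56 arrangements allow, and 0.0714 after Benjamini-Hochberg adjustment. Beside the p-values of the other comparisons, 0.0714 was the lowest adjusted value this comparison could reach, so it could not pass at 0.05 whatever its size. The limits on genes and mt- UMIs had left out 10 barcodes with at least 8 Sst UMIs in WT oil mice, beside 11 Sst neurons kept, and 11 in WT tamoxifen mice, beside 60 kept. Of those, 5 and 2 met the rest of the rule. With these limits lifted and the rest of the rule kept, which was tried after seeing the data, the shares were 0.461%, 0.760% and 0.711% against 1.11% to 1.87%, still apart. With every left-out barcode of at least 8 Sst UMIs counted as a Sst neuron, whatever its neuronal genes, the shares were 0.852%, 1.20% and 2.15% against 1.59% to 2.74% and overlapped (exact permutation p = 0.143). The separation of the 2 groups therefore held for neuronal barcodes and did not hold for all barcodes with that much Sst. The median depth of neurons per library was 1592 to 2058 UMIs in WT oil and 1342.5 to 1852 in WT tamoxifen. The part of depth in the shares was not tested. Without WT oil replicate 3 and Esr1cKO tamoxifen replicate 3 the difference was 1.21 percentage points with no overlap (exact permutation p = 0.0476, the smallest 21 arrangements allow, and 0.19 after adjustment, again the lowest it could reach). The study ran 4 mice a day, and in each of the 3 sets of 4 successive libraries that held both groups, a guess at the day, the WT tamoxifen mouse had the higher share.

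Counted over all kept barcodes in place of neurons, the WT shares were 0.131% ± 0.0494 (SD, n = 3) with oil and 0.30% ± 0.123 (SD, n = 5) with tamoxifen and overlapped (exact permutation p = 0.107). Set among the 4 peptide-defined types (Sst, Gal, Agrp and Trh neurons), Sst neurons were 33.7% ± 29.4 with oil and 31.7% ± 7.81 with tamoxifen in WT mice, so the direction turned (exact permutation p = 0.929). WT oil replicate 1, with 2 Sst neurons, had the highest share at 66.7% and the lowest WT oil share was 10.3%. Fewer Sst cells in a mouse and less Sst RNA per cell cannot be told apart here, since both leave fewer barcodes at 8 UMIs.

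In Esr1cKO mice the groups overlapped. Sst neurons made up 1.54%, 0.730%, 1.21% and 0.876% of neurons with oil, and 1.28%, 0.403%, 2.57% and 2.06% with tamoxifen. The lowest of these came from 1 Sst neuron and the highest from 21. The means were 1.09% ± 0.363 (SD, n = 4) and 1.58% ± 0.946 (SD, n = 4), with an exact permutation p = 0.343 and 0.457 after adjustment. The difference of 0.489 percentage points became 0.159 without Esr1cKO tamoxifen replicate 3 and 0.881 without Esr1cKO tamoxifen replicate 2. The tamoxifen mouse had the higher share in 2 of the 4 sets of successive libraries. The difference between the genotypes in the tamoxifen effect, -0.51 percentage points, gave p = 0.468 by permutation of treatment within genotype, so the effects were not shown to differ. Neither genotype comparison passed (exact permutation p = 0.286 with oil and 0.722 with tamoxifen), and both share their oil or tamoxifen samples with the treatment comparisons. Without the 2 libraries that stood apart their differences were 0.545 and -0.51 percentage points (exact permutation p = 0.133 and 0.304). The direction with tamoxifen, Esr1cKO minus WT, turned from -0.18 to 0.21 percentage points when Esr1cKO tamoxifen replicate 2, the mouse with 1 Sst neuron, was left out.

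Sst summed over all neurons, which needs no limit of 8 UMIs, had its lowest group mean in the WT oil mice. It was 88.6, 121 and 154 CPM in WT oil and 555, 753, 341, 299 and 246 CPM in WT tamoxifen, so that every tamoxifen mouse lay above every oil mouse. The Sst neurons held 6296 of the 7650 Sst UMIs in kept barcodes, so this sum largely repeats the share of Sst neurons. An earlier analysis of these data had already named Sst in neurons, so its rank below is not independent support. The edgeR quasi-likelihood fit of all neurons gave a log2 fold change of 1.86 (SE 0.43, unadjusted p = 0.000453), the smallest p among the 13671 genes tested, and an adjusted p of 0.99999. No gene was called in that comparison (0%, with 434 genes at an unadjusted p under 0.05 and 0 called by DESeq2, where Sst had an adjusted p of 0.0553). The adjusted p of Sst ran from 0.0553 to 0.9999 over 7 alternative settings, and without the 2 libraries that stood apart the change was 2.09 (adjusted p = 0.786).

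Across the other comparisons Sst in all neurons moved less. It was 389, 110, 245 and 338 CPM in Esr1cKO oil and 281, 251, 394 and 460 CPM in Esr1cKO tamoxifen, 2 groups that overlapped (log2 fold change 0.35, SE 0.38). The interaction of treatment and genotype was -1.51 on the log2 scale (unadjusted p = 0.0157, adjusted p = 0.976 by edgeR), and Esr1cKO oil exceeded WT oil by 1.20 (unadjusted p = 0.0126, adjusted p = 0.898 by edgeR). With tamoxifen the genotypes differed by -0.30 (SE 0.36). Without the 2 libraries that stood apart these 4 values were 0.26, -1.82, 1.44 and -0.39. In these 4 comparisons too edgeR called 0% of the 13671 genes, with 431, 623, 756 and 498 at an unadjusted p under 0.05, and DESeq2 called 0, 0, 0 and 2. The median Sst count per Sst neuron, which the rule bears on, was 11.5, 19 and 11.5 UMIs in the WT oil mice and 22.5 to 31 in the WT tamoxifen mice.

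**Figure D2:**
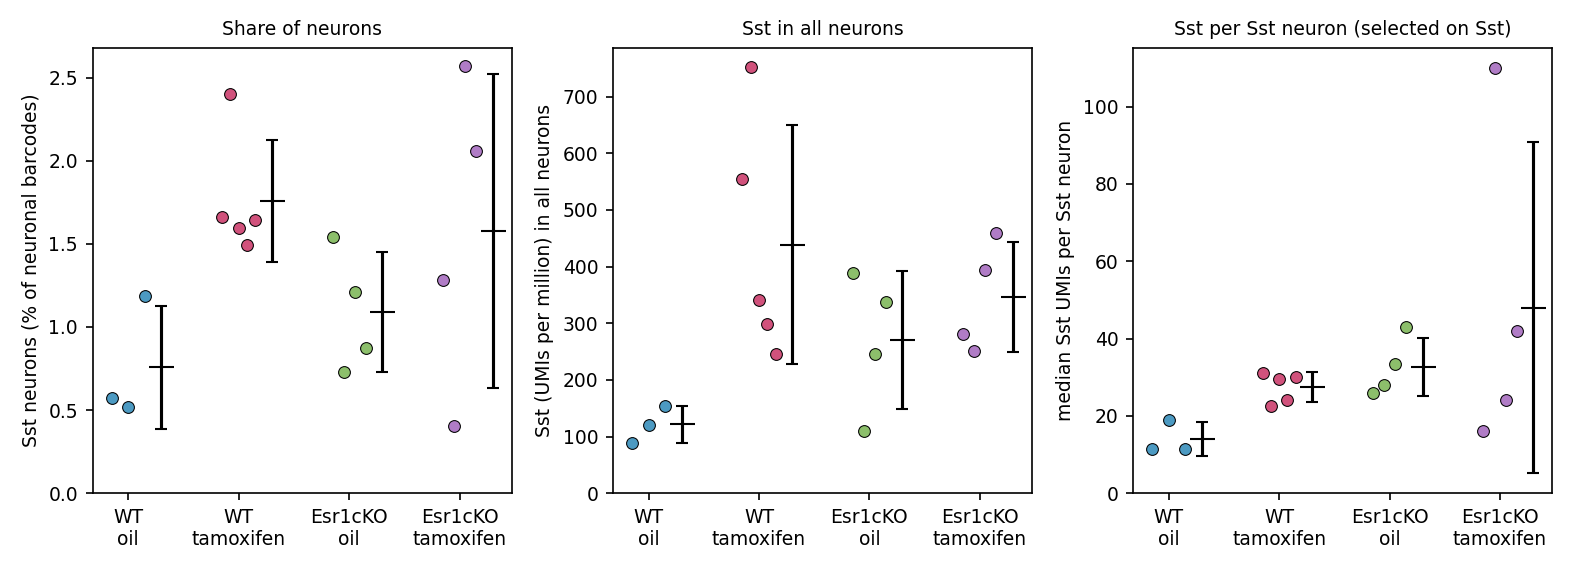
Each point is a mouse, with the mean ± SD of the group beside it (n = 3, 5, 4 and 4). Left, Sst neurons as % of neuronal barcodes; middle, Sst CPM over all neuronal barcodes; right, median Sst UMIs per Sst neuron, cells that were selected on Sst. The 3 WT oil mice lie below the 5 WT tamoxifen mice in all 3 panels, and the Esr1cKO groups overlap.

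Sst neurons were next set against the other neurons of the same mice, with the 12 genes of the rule left out. The 8 libraries with at least 10 Sst neurons were 4 WT tamoxifen, 2 Esr1cKO oil and 2 Esr1cKO tamoxifen, with no WT oil library. In them (103 cells and 4015 other neurons), the edgeR test with the library as a block called 329 of 8790 genes (3.74%). Of these 33 were higher in Sst neurons (0.375%) and 296 lower (3.37%), and the median log2 fold change of all genes was -0.17. 1 UMI was worth 12.8 to 38.6 CPM in a library's Sst neurons, so small counts carry much of the spread. Against galanin, Agrp and Trh neurons, 21 of 1430 genes tested were called. Of the 33 higher genes, 3 were called higher there. Sst neurons and other neurons were also both held to at least 6 of the 8 neuronal genes and 1000 UMIs. Under these stricter limits 62 Sst neurons of 5 libraries remained and 32 of 7609 genes were called (0.421%), 8 higher and 24 lower.

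The genes called higher against other neurons both without and with the stricter limits were Otp, Pkib, Col11a1, Gpr101, Ecel1, Nr3c1 and Resp18. Pkib encodes an inhibitor of protein kinase A, the kinase that cyclic AMP activates. Pkib was 159 CPM at the lowest, 331 at the median and 579 at the highest of 8 libraries in Sst neurons, against 60.1, 79.2 and 109 CPM in other neurons, so the 2 sets did not overlap. Its log2 fold change was 1.82 (SE 0.21, adjusted p = 9.03e-16 by edgeR) and 1.77 under the stricter limits. Thinned to 1000 UMIs, 19.7% of Sst neurons had a Pkib UMI, against 6.73% of other neurons and 1.99% of barcodes with no neuronal gene.

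Otp encodes orthopedia, a homeodomain factor needed for the somatostatin, vasopressin and oxytocin neurons of the developing hypothalamus. Otp in Sst neurons was 0 CPM at the lowest, 186 at the median and 321 at the highest, against 7.78, 28.8 and 38.9 CPM in other neurons. It was higher in 7 of 8 mice and at 0 in WT tamoxifen replicate 3, which edgeR fitted as 2.46 on the log2 scale (SE 0.32) with an adjusted p of 4.08e-12. Otp UMIs were found in 37 of 141 Sst neurons. Sim1, a factor of paraventricular and supraoptic neurons, was also higher (log2 fold change 1.66, SE 0.41, adjusted p = 0.00276 by edgeR) and lost its call under the stricter limits (1.15, adjusted p = 0.79).

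Of 31 regional transcription factors tested, 3 were higher (Otp, Sim1 and Nhlh2, a factor of neuroendocrine neurons), 7 were lower (Rorb, Nfia, Rora, Nfib, Prox1, Tcf7l2 and Zfhx4) and 21 did not pass. Their median log2 fold change was -0.69. Rorb fell furthest beyond its error, from 141 CPM ± 31.8 in other neurons to 23.3 ± 28.2 in Sst neurons (SD, n = 8), lower in every mouse. Nkx2-1, a factor of the ventral hypothalamus and the gene whose promoter drives Cre, had a log2 fold change of -0.67 (adjusted p = 0.734 by edgeR). Under the stricter limits Otp, Rorb and Zfhx4 kept their calls, while Nhlh2 (1.20, adjusted p = 0.528), Sim1 and 5 of the 7 lower factors did not. Those were Nfia (-0.65), Nfib (-1.07), Rora (-1.18), Tcf7l2 (-1.44) and Prox1 (-3.60), with adjusted p of 0.0689 to 0.994.

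Receptor and signalling genes followed. Gpr101 encodes an orphan receptor linked to pituitary gigantism when duplicated. It was 52.5, 205 and 455 CPM at the lowest, median and highest library in Sst neurons and 29.96, 57.5 and 90.04 CPM in other neurons, and 7 of 8 mice had more of it in Sst neurons, by 1.78 on the log2 scale (SE 0.26, edgeR adjusted p = 8.66e-10). Ghr, the growth hormone receptor, was 12.8, 191 and 357 CPM in Sst neurons and 12.3, 31.3 and 45.9 CPM in other neurons (2.03, SE 0.33, adjusted p = 1.85e-07 by edgeR). The sets overlapped for both genes. Under the stricter limits Gpr101 kept its call and Ghr had a log2 fold change of 1.69 and an adjusted p of 0.0779 by edgeR. In single cells, however, 7.58% of thinned Sst neurons had a Ghr UMI, against 3.12% of other neurons and 3.58% of barcodes with no neuronal gene.

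Of the growth hormone axis, 11 of 21 listed genes passed the filter on low counts. Ghr was the one called higher and Igfbp5, a binding protein of insulin-like growth factors, the one called lower (log2 fold change -1.89, SE 0.28, 31.8 to 131 CPM against 148 to 277). Igfbp5 lost its call under the stricter limits (-1.10, adjusted p = 0.166). Igf1r, Jak2, Stat5b and the other 6 tested did not pass. Of the 5 somatostatin receptors only Sstr1 was abundant enough to test. It was higher in Sst neurons (68.5 CPM ± 42.6 against 19.1 ± 4.71, SD, n = 8; log2 fold change 1.58, SE 0.43, adjusted p = 0.01 by edgeR), and lost its call under the stricter limits (1.21, adjusted p = 0.703). Over all 16 libraries Sstr1 gave 27 UMIs in 21 Sst neurons.

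Of 8 steroid and thyroid receptor genes, Nr3c1, the glucocorticoid receptor, was higher (303 CPM ± 136 against 148 ± 21.1, SD, n = 8; log2 fold change 0.79, adjusted p = 0.00288 by edgeR) and kept its call under the stricter limits (0.96, adjusted p = 0.0203). By limma-voom its adjusted p was 0.126. Thinned to 1000 UMIs, 18.9% of Sst neurons had a Nr3c1 UMI, against 11.8% of other neurons and 21.2% of barcodes with no neuronal gene, so the share of cells was not above that of those barcodes and Nr3c1 RNA from other cells is not told apart in it. Esr1 (-0.83, adjusted p = 0.501 by edgeR) and Pgr were among the 7 that did not pass. Of 11 metabolic and peptide receptor genes, Prlr, the prolactin receptor, was lower (-1.32, adjusted p = 0.00502 by edgeR), without a call under the stricter limits, and 10 did not pass.

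Genes of peptide handling went both ways. Of 19 tested, Resp18 and Pcsk1n were higher, Cpe, Chga and Vgf lower, and 14 did not pass, with a median log2 fold change of 0.01. Resp18, an endoplasmic reticulum protein of neuroendocrine cells, was 1812, 2600.4 and 3409 CPM at the lowest, median and highest library against 937, 1330 and 1570 CPM in other neurons, with no overlap (log2 fold change 0.83, SE 0.11, adjusted p = 2.57e-12 by edgeR). Pcsk1n, the inhibitor of prohormone convertase 1, rose by 0.44 (SE 0.11, adjusted p = 0.00441 by edgeR). Cpe, the carboxypeptidase that trims peptide precursors, fell from 894 CPM ± 92.3 to 640 ± 166 (SD, n = 8). Chga, a vesicle granin, and Vgf, a granin-like precursor, had log2 fold changes of -0.74 and -1.03. Under the stricter limits Resp18, Chga and Vgf kept their calls and Pcsk1n (0.34, adjusted p = 0.622) and Cpe (-0.44, adjusted p = 0.429) did not, and limma-voom called none of the 3 lower genes. Against galanin, Agrp and Trh neurons the Resp18 difference was -0.03 (adjusted p = 0.959 by edgeR).

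Of 17 other peptide precursors tested, 10 were lower, 1 higher and 6 did not pass, with a median log2 fold change of -1.61. The number lower was 8 with a robust estimate of the spread in edgeR and 7 by limma-voom. Cck was 0 CPM in 7 of 8 libraries of Sst neurons and 70.9 to 264 CPM in other neurons. Pomc was 0 to 78.4 against 86.3 to 648 CPM and Tac2 0 to 223 against 67.6 to 1454 CPM. Vip and Grp had no UMI in the Sst neurons of these libraries, so Vip was 24.96 to 151 and Grp 26.5 to 57.5 CPM in other neurons alone. Pdyn, Penk and Nts were lower as well, and of the 10 lower precursors all but Vip, which was not tested there, kept a call under the stricter limits. A precursor that a few other neurons make in bulk weighs on the sum of all other neurons, and lower here means lower than that sum.

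Avp and Oxt rested on single cells. Avp had a log2 fold change of -3.56, and its adjusted p went from 1.41e-123 to 0.16 when the spread was estimated robustly in edgeR. Oxt averaged 1712 CPM in Sst neurons and 848 CPM in other neurons while its fitted log2 fold change was -1.63, because 1 Sst neuron of Esr1cKO oil replicate 3 held 692 Oxt and 148 Avp UMIs. That cell held 97.7% of all Oxt UMIs of Sst neurons. The robust fit gave Oxt an adjusted p of 0.783.

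Npy was the 1 precursor called higher, and it marked a minority. Npy in Sst neurons ran from 0 in 2 libraries over a median of 327 to 6358 CPM, against 30.2 to 225 CPM in other neurons, and was higher in 4 of 8 mice. The edgeR fit with its default spread gave a log2 fold change of 2.27 (adjusted p = 2.78e-39), the robust fit an adjusted p of 0.533 and limma-voom 0.554, and under the stricter limits Npy had no call (0.59, adjusted p = 0.701), so no difference over mice was established. Of the 141 Sst neurons 27 had a Npy UMI, and 14 cells from 9 libraries with at least 5 held 94.3% of the 476 Npy UMIs. Of those 14 cells, 0 had a UMI of Slc17a6, 9 had Gad2, 7 had Gad1 and 6 had Lhx6, a factor of medial ganglionic eminence interneurons, which 11 of all 141 Sst neurons had.

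Forebrain interneuron genes gave 2 higher calls of 13 tested, Nos1, neuronal nitric oxide synthase, and Crhbp, which encodes the binding protein of corticotropin-releasing hormone, and 1 lower, Erbb4, the neuregulin receptor. Nos1 was 12.8, 114 and 350 CPM at the lowest, median and highest library against 31.1, 38.8 and 55.2 CPM in other neurons (log2 fold change 1.49, adjusted p = 0.000501 by edgeR and 0.0642 by limma-voom). Crhbp rested on 15 UMIs (1.89, adjusted p = 0.00803 by edgeR). The log2 fold changes under the stricter limits were 0.79 for Nos1, 1.55 for Crhbp and -0.78 for Erbb4, and edgeR called none of the 3. Of 11 calcium-binding genes Necab1 was higher (1.13, adjusted p = 0.00825 by edgeR, 0.108 under the stricter limits) and 10 did not pass.

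The 10 genes with the highest change among those higher in all 8 mice and above 50 CPM were Pkib, Nhlh2, Ecel1, Adam23, Tmem255a, Resp18, Dcaf12l1, Gpx3, Hdgfrp3 and Caly. Of 25 alternatives, Hdgfrp3 lost its call in 19, Dcaf12l1 in 14, Caly in 9 and Pkib in 0. Among these alternatives 1 left out only libraries outside the 8 and so repeated the main fit, and 2 others were the same fit. Ecel1, a neuronal peptidase of the neprilysin family, was 63.6, 175 and 368 CPM against 50.1, 73.0 and 96.4 CPM (log2 fold change 1.20, SE 0.26). Adam23, a synaptic membrane protein, was 140 to 390 against 83.2 to 116 CPM, and Gpx3, a glutathione peroxidase, 191 to 520 against 160 to 285 CPM. Against galanin, Agrp and Trh neurons Gpx3 had a difference of -0.07 (adjusted p = 0.919). The 5 lowest, Tm4sf1, Cyr61, Ifitm3, Cd9 and Id1, had no UMI in these Sst neurons and were at least 12.02-fold, 11.8-fold, 11.1-fold, 10.6-fold and 8.62-fold lower, taking 3 UMIs over the summed Sst neurons as the limit. All 5 are genes of endothelial, mural or glial cells.

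**Figure D3:**
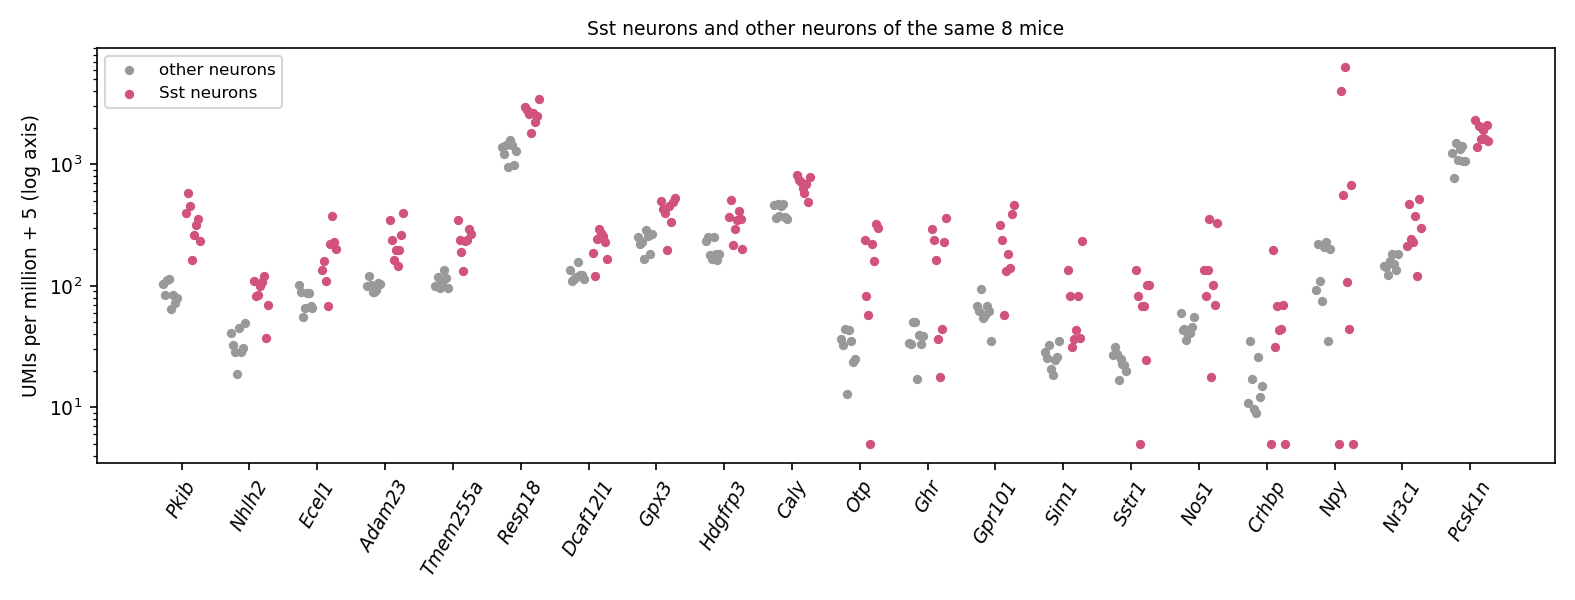
CPM plus 5 (log axis) of genes called higher in Sst neurons, in Sst neurons (red) and other neurons with at least 1000 UMIs (grey) of the same 8 mice, 1 point per mouse. For Pkib, Resp18 and Adam23 the 2 sets do not overlap, while Npy spans 0 to 6358 CPM in Sst neurons.

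No transmitter gene passed the test between Sst neurons and other neurons. Gad2, a GABA-synthesizing enzyme, was 261, 862 and 974 CPM at the lowest, median and highest library against 366, 513 and 696 CPM (log2 fold change 0.26, SE 0.14, adjusted p = 0.417 by edgeR). Slc17a6, the vesicular glutamate transporter VGLUT2, was 19.4, 158 and 366 CPM against 120, 161 and 269 CPM (-0.37, SE 0.24, adjusted p = 0.564 by edgeR). No GABA gene passed of 4 tested, with a median of 0.46, and no monoamine or acetylcholine gene of 3. By their UMIs, 77 Sst neurons (54.6%) had GABA genes alone, 25 (17.7%) had glutamate transporter genes alone, 16 (11.3%) had both and 23 (16.3%) had neither, against 44.5%, 19.5%, 4.42% and 31.6% of other neurons, which were shallower.

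Npy and Pkib lay mostly in different Sst neurons. Of the 77 cells with GABA genes alone 25 had a Npy UMI, and of the 25 with glutamate transporter genes alone 1 did. Of the 50 Sst neurons with a Pkib UMI 24 also had Slc17a6, against 18.7% of the remaining cells, while 9 had Slc32a1, the vesicular GABA transporter, against 44.0% of the rest. A Ghr UMI went with an Otp UMI in 15 of 28 cells, against 19.5% of the rest. These pairs are counts over cells that share libraries and depth and carry no test.

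**Figure D4:**
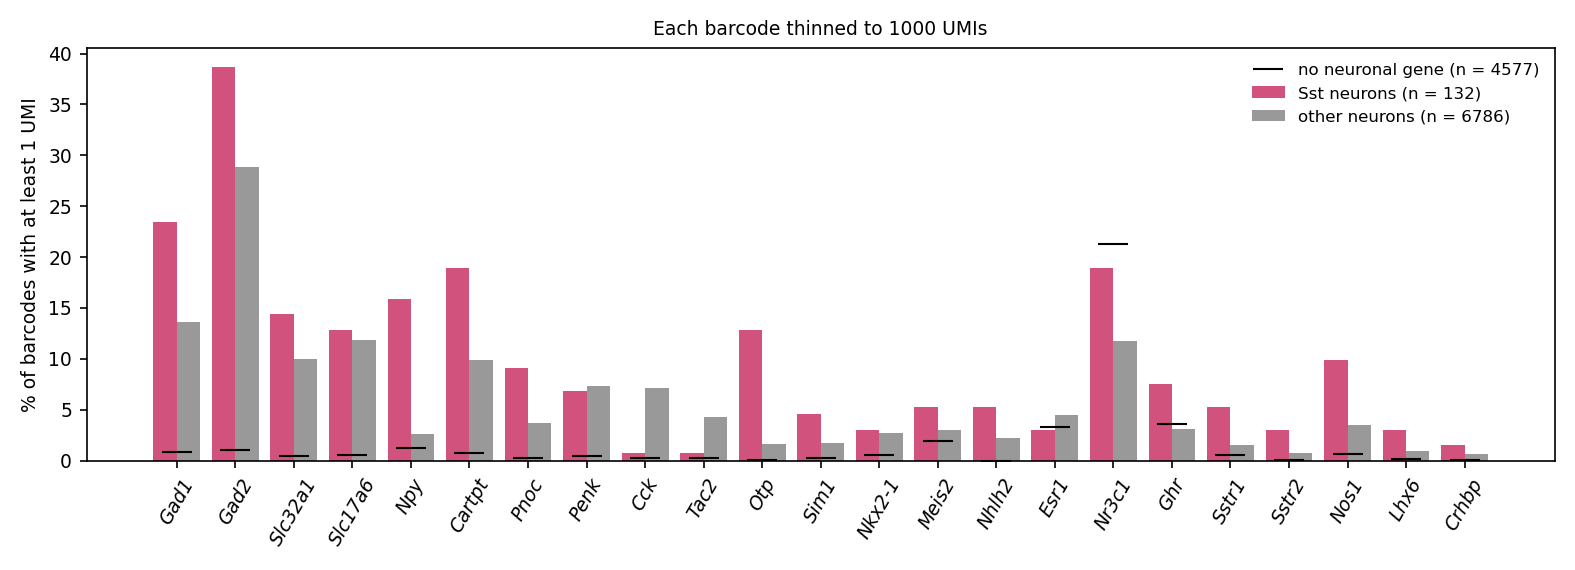
Share of barcodes with at least 1 UMI of a gene after thinning each to 1000 UMIs, in Sst neurons (red), other neurons (grey) and barcodes with none of the 8 neuronal genes (black line). Otp reaches 12.9% of Sst neurons against 1.59% of other neurons, and Esr1 3.03% against 4.45%.

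Clustering of the 141 cells without the genes of the rule gave 3 sub-groups, described here without a test because the same counts formed them. The first, 55 cells from all 16 libraries, was led by Npy, Dlx1 and Gad1 and had a Npy UMI in 38.2% of cells, Gad1 in 54.5% and Slc17a6 in 10.9%. The second, 53 cells from 14 libraries, was led by Cbln2, Rnf112 and Wfs1 and had Otp in 35.8% of cells and Slc32a1 in 45.3%. The third, 33 cells from 13 libraries, was led by Cartpt, the precursor of CART peptide, and by Gpr101 and Ghr. In it Npy, Meis2 and Nkx2-1 were at 0 in 33 cells, Slc17a6 was found in 48.5% and Pkib in 54.5%. Median Sst was 20, 24 and 49 UMIs per cell in the 3 sub-groups, at median depths of 2787, 3549 and 2390 UMIs. Every group of mice held cells of each sub-group, WT oil with 5, 4 and 2.

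**Figure D5:**
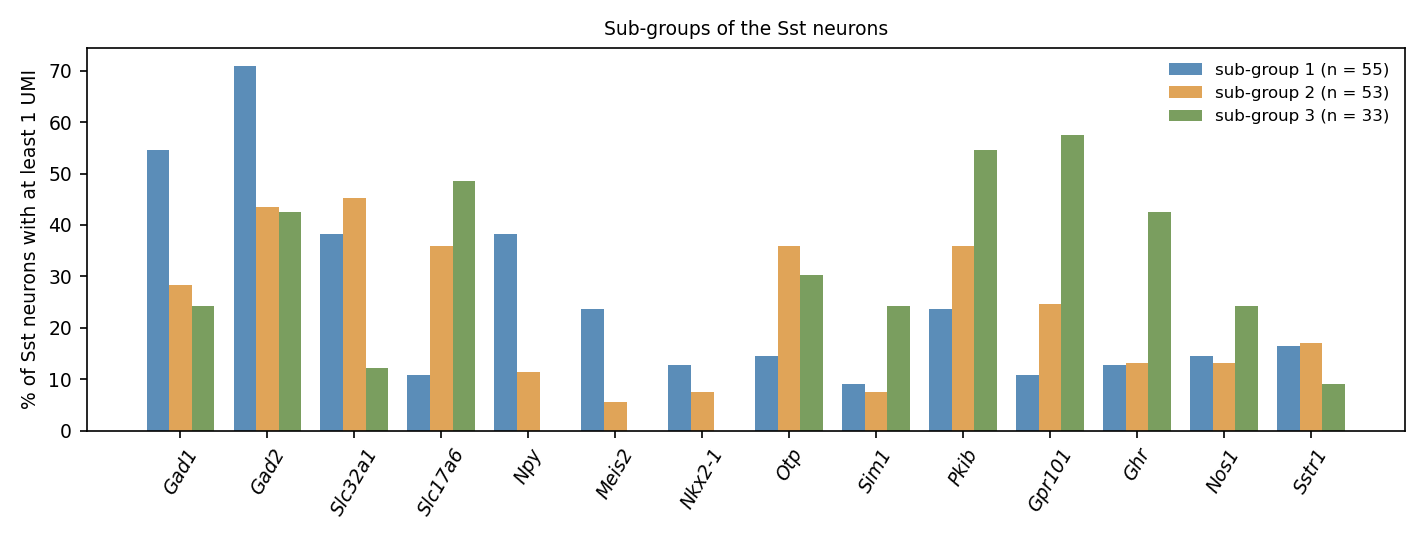
Share of the cells of each sub-group of Sst neurons with at least 1 UMI of a gene (n = 55, 53 and 33). Npy is found in 38.2% of sub-group 1 and in none of sub-group 3, and Gpr101 in 57.6% of sub-group 3.

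Immediate early genes rise within minutes of neuronal activity and of tissue dissociation. Of 23 tested, 11 were lower in Sst neurons, 0 higher by edgeR and 12 did not pass, with a median log2 fold change of -1.48, and under the stricter limits 2 of 13 were lower. Fos was 160, 384 and 1003 CPM at the lowest, median and highest library in Sst neurons and 744, 1104 and 1238 CPM in other neurons (-1.34, SE 0.14, adjusted p = 1.52e-18 by edgeR). Egr1 was 58.1 to 309 against 239 to 546 CPM. Barcodes with no neuronal gene had more of both. Thinned to 1000 UMIs, 45.0% of those barcodes had a Fos UMI, against 34.9% of other neurons and 28.03% of Sst neurons. Under the stricter limits Fos (-0.90, adjusted p = 0.00137) and Egr1 (-1.71, adjusted p = 0.000707) kept their calls, and Jun (-0.24), Dusp1 (-0.41), Fosb (-0.71), Btg2 (-1.45, adjusted p = 0.129) and Junb (-1.81, adjusted p = 0.117) did not. Ier2, Atf3, Klf2 and Nr4a1 were not tested there.

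Markers of other cells were lower in the same comparison. The calls were 7 of 9 oligodendrocyte markers tested, 6 of 10 astrocyte, 4 of 5 endothelial and 2 of 2 mural markers, and none was higher. Under the stricter limits 1 of 5 oligodendrocyte, 0 of 5 astrocyte and 0 of 1 endothelial markers tested were lower, and 1 of the 5 astrocyte markers was higher. The part of other cells' RNA in the lower immediate early genes was not tested. Of 88 nuclear oxidative phosphorylation genes 0 were called by edgeR (median 0.03), of 17 glycolysis genes Aldoc, the aldolase of astrocytes, was lower, and of 9 mitochondrial genome genes 6 were lower (median -0.45), with mt-Nd1 at 1201 to 2886 against 1906 to 3363 CPM. Under the stricter limits 0 of 9 mitochondrial genome genes (median -0.23) and 0 of 17 glycolysis genes were called by edgeR. The share of mt- UMIs was part of the rule for both sets.

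Within Sst neurons no gene passed in any comparison of conditions. WT oil mice had too few Sst neurons for the 10 per library used above, so 3 comparisons took libraries with at least 2 Sst neurons (3 WT oil, 5 WT tamoxifen, 4 Esr1cKO oil and 3 Esr1cKO tamoxifen mice). edgeR called 0 of 901 genes (0%) for tamoxifen against oil in WT mice, for the interaction and for Esr1cKO against WT with oil, with 40, 41 and 45 genes at an unadjusted p under 0.05. For tamoxifen against oil in Esr1cKO mice and for Esr1cKO against WT with tamoxifen, from 4 WT tamoxifen, 2 Esr1cKO oil and 2 Esr1cKO tamoxifen mice with at least 10 Sst neurons, it called 0 of 953 (0%), with 39 and 54. DESeq2 called 0, 0 and 0 in the first 3 and 1 and 1 in the last 2. Without Esr1cKO tamoxifen replicate 4, which left 1 Esr1cKO tamoxifen mouse assumed to vary like the other groups, edgeR called 77 and 84 genes in the last 2, among them mt-Rnr2 and Csmd1 in both, and without Esr1cKO tamoxifen replicate 3 and WT oil replicate 3, which again left 1 Esr1cKO tamoxifen mouse, it called 2 and 2. In WT mice 1 gene, Vmp1, was called when Esr1cKO tamoxifen replicate 3 was left out (adjusted p = 0.00772 by edgeR). The comparisons share samples. At the median SE a gene had to change by 1.03 in WT and 0.929 in Esr1cKO mice on the log2 scale to reach an unadjusted p of about 0.05, and a call after adjustment needed more.

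The genes with the smallest p are given as values. In WT mice they were Stmn1, a tubulin-binding protein (1111 CPM with oil and 257 with tamoxifen, adjusted p = 0.269 by edgeR), Vmp1, an autophagy protein (22.7 and 585 CPM), and Oxr1, an oxidation resistance gene (0 and 244 CPM). With oil, Pkib was 0 CPM in all 3 WT libraries and averaged 393 CPM in Esr1cKO (adjusted p = 0.270 by edgeR), which means no Pkib UMI in the 11 WT oil Sst neurons. Oxr1 was at 0 there as well. In Esr1cKO mice mt-Rnr2, the mitochondrial large ribosomal RNA, had the smallest p (11959 CPM with oil and 44268 with tamoxifen, adjusted p = 0.219 by edgeR), followed by Dis3l2 and Csmd1. The mt-Rnr2 difference was 1.89 on the log2 scale in these libraries and -0.23 over libraries with at least 2 Sst neurons, and DESeq2 called it (adjusted p = 0.00183). The 2 Esr1cKO tamoxifen libraries held 62235 CPM of mt-Rnr2 in replicate 3 and 26301 in replicate 4. Without replicate 3, with replicate 4 as the 1 Esr1cKO tamoxifen mouse, the log2 differences were 1.16 for mt-Rnr2, -1.77 for Dis3l2 and -1.42 for Csmd1. mt-Rnr2, Csmd1 and Slc24a3 had the smallest p between the genotypes with tamoxifen, with an adjusted p of 0.270 for mt-Rnr2 by edgeR, and their log2 differences without replicate 3 were 0.76, -1.74 and -1.65 against 1.496, -3.00 and -2.40 with it. Of the 57 nuclear oxidative phosphorylation genes tested in WT mice, 45 had a log2 fold change above 0 with tamoxifen and 0 were called, with 2 at an unadjusted p under 0.05 and a median of 0.31, against 502 of 901 genes and a median of 0.06 over all genes tested. In Esr1cKO mice 33 of 61 such genes were above 0 (median 0.05), against 455 of 953 over all genes tested (median -0.02). The interaction was above 0 for 12 of 57 (median -0.25), against 385 of 901 over all genes tested (median -0.13). Of 6 glycolysis genes tested in WT mice, 2 were above 0, beside the 502 of 901 genes given above.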

How the data were processed

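Drop-seq libraries of the hypothalamus and POA of 16 mice were used, 1 library per mouse. The authors deposited raw UMI counts per gene and barcode. The submitters' processing notes name STAR 2.6, Seurat 3.6.1 and mm10, and the gene annotation is not given in the sources used here. The labels carry no replicate numbers, so replicates are numbered in accession order. The study prepared 4 mice a day over 4 days without giving the day of a library, and a term for successive fours of library numbers, a guess at the day, was an alternative. The members and gene lists were chosen with earlier results of these data known.

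Counts were summed per mouse and tested with edgeR 4.0.16 (quasi-likelihood, TMM scaling, filterByExpr) in R 4.3.3, with Benjamini-Hochberg adjustment over all genes tested and a threshold of 0.05. Sst neurons were compared with other neurons of at least 1000 UMIs in libraries with at least 10 Sst neurons, with the library as a block. No WT oil library held 10, so the WT treatment, interaction and oil genotype comparisons, as designed, could not be fitted and used libraries with at least 2, which was chosen after seeing the data. Shares were compared by exact two-sided permutation tests over all arrangements of the mice, in Python 3.11.15. Genes were named as the 10 highest and 5 lowest by log2 fold change among those called, above 50 CPM in the higher set and changed one way in all 8 mice, the called members of the gene lists, and the 3 smallest p in each comparison of conditions. Alternatives included DESeq2 1.42.0, limma-voom (limma 3.58.1), a robust spread in edgeR, no filter, other Sst limits, Scrublet doublets removed (scanpy 1.11.5, expected rate 0.05) and leaving out each library. The limits of at least 6 of the 8 neuronal genes were also added after seeing the data. The test steps were tested on simulated data. Intervals and limits for a count of 0 (3 UMIs) cover counting error only. Results for some genes are not reported here.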

Additional observations from a re-analysis of the deposited data

Results flagged for a closer look

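The share of neurons that were Sst neurons in WT tamoxifen replicate 2, 2.40%, lay apart from the other 4 WT tamoxifen mice, which ran from 1.49% to 1.66%. Chance puts about 1 of 20 groups past the limit used, and 21 groups were examined. Sst was also found outside the cells that were analysed. Of the barcodes left out by the limits on genes and mt- UMIs, 32 had at least 8 Sst UMIs, 10 in WT oil, 11 in WT tamoxifen, 4 in Esr1cKO oil and 7 in Esr1cKO tamoxifen mice. A further 3 kept barcodes with at least 8 Sst UMIs had fewer than 3 of the 8 neuronal genes. Another 8 neuronal barcodes with at least 8 Sst UMIs had 5 or more UMIs of Gal, Agrp or Trh.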

How the results depend on the processing

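By replicate number, no paired analysis was possible because the labels give no such numbers, and the numbers used here only follow accession order. A block of successive fours of library numbers, a guess at the day of preparation, could be fitted and left 0 calls in all 5 comparisons of conditions and gave 1.88 for Sst in all neurons of WT mice (adjusted p = 0.34). Against other neurons, 329 genes were called, 33 of them higher. Against galanin, Agrp and Trh neurons the count was 21 of 1430 genes tested (12 higher). Of the 33 higher genes 3 were called higher there, and of the 296 lower genes 5 were called lower. By DESeq2 the count was 179, and with no filter on low counts it was 566. WT libraries alone, 4 and all with tamoxifen, gave 141 (15 higher). Oil libraries alone, 2 and both Esr1cKO, gave 38 (3 higher). The count was 148 (18 higher) with at least 12 Sst UMIs. It was 32 (8 higher) with at least 6 of the 8 neuronal genes and 1000 UMIs. Leaving out each library gave 252 to 314 (24 to 32 higher). Directions turned for Resp18 (-0.027), Gpx3 (-0.065), Npy (-0.15) and Mbp (0.16) against galanin, Agrp and Trh neurons, for Oxt (1.14) in oil libraries alone and for mt-Rnr2 (-0.23) over libraries with at least 2 Sst neurons. The cause was not tested. The counts of 0 between conditions became 1, 12, 3, 5 and 5 with no filter on low counts, in the order WT treatment, Esr1cKO treatment, interaction, oil genotypes and tamoxifen genotypes. WT treatment gave 1 with the 2 groups alone and 0 to 1 when a library was left out. Esr1cKO treatment gave 1 by DESeq2, 29 with at least 12 Sst UMIs, 2 without the 2 libraries that stood apart and 0 to 77 when a library was left out. Tamoxifen genotypes gave 1 by DESeq2, 44 with at least 12 Sst UMIs, 2 without those libraries, 1 by a Wilcoxon test over single cells and 0 to 84 when a library was left out. With at least 12 Sst UMIs each Esr1cKO arm was 1 library, assumed to vary like the other groups, and the tamoxifen one was replicate 3, which stood apart. As a share of the 4 peptide types, the differences turned to -1.95 points for WT treatment and -14.7 for the oil genotypes, which also turned, to -0.165, with every left-out barcode of at least 8 Sst UMIs counted. Without WT oil replicate 2 and Esr1cKO tamoxifen replicate 2 the tamoxifen genotypes turned to 0.212, and leaving out each library gave -0.51 to 0.212. For Sst in all neurons, which passed in no comparison, all 83 alternative values kept direction and none passed. With tamoxifen, the genotype difference ran from -0.47 to -0.003 when each library was left out.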
